A study of Homo sapiens with 5 samples.

Results

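The protein-coding genes for the small subunit of the cytosolic ribosome were examined in TF-1 cells with and without *MTSS1*. Members were all genes of the count table whose symbol is RPS followed by a number, with or without X, A or L behind it, together with *RPSA* and *FAU*. The rule itself uses no expression value, although the family was taken up with earlier results of these data known. This gave 33 of the 27328 genes in the table, and S6 kinase genes and pseudogenes were left out. TF-1 is a human acute myeloid leukemia (AML) cell line of erythroid origin that grows on GM-CSF. All pools carried lentiviral Cas9-GFP with an sgRNA, and each library came from a pool of 4 single-cell clones. The 2 control pools (sgCtrl pools 1 and 2) had an sgRNA against the *renilla luciferase* gene, which human cells lack. The 3 knockout pools had sgMTSS1_1, sgMTSS1_2, and sgMTSS1_3, 1 sgRNA for each pool, and are called knockout pools 1 to 3. The authors left out a further control pool and the sgMTSS1_4 pool after an outlier test, and these were not analysed here. A replicate is a pool of clones, so that p-values measure the spread between such pools. The numbers are mRNA levels from poly(A)-primed 3′ libraries, and protein, rRNA, and assembled ribosomes were not measured.

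The small subunit binds the mRNA and reads its codons, while the large subunit joins the amino acids. Its proteins fold around a single rRNA, in a head that turns during decoding and a body with a platform that holds the mRNA path. They are needed in equal numbers, and a shortage of many of them stops the maturation of the subunit. Blood cell precursors are sensitive to such a shortage, since loss of 1 gene copy of *RPS19* and of several other members causes Diamond-Blackfan anemia, in which red cell precursors fail. Most ribosomal protein mRNAs start with a 5′ terminal oligopyrimidine (TOP) tract, a C followed by an unbroken run of C and T, through which mTOR signaling regulates their translation.

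The annotated transcription starts show this shared feature, and 7 of them are printed to set members with the tract beside members without it. RefSeq windows on GRCh38.p14 were found for 26 of the 33 members, with none for 7, among them *RPS2*, *RPS15A*, and *RPS20*. Each sequence below runs 5′ to 3′ on the strand of the gene, with 10 bases before the annotated start and 20 from the start on, and capitals mark the run of C and T that begins with a C at the start. *RPS27A* lies at chr2:55232678-55232707 on the plus strand, *FAU* at chr11:65122115-65122144 on the minus strand, and *RPS24* at chr10:78033853-78033882 on the plus strand. *RPS12* lies at chr6:132814559-132814588 on the plus strand and *RPS23* at chr5:82278335-82278364 on the minus strand. *RPS26*, at chr12:56041908-56041937 on the plus strand, and *RPS27L*, at chr15:63157458-63157487 on the minus strand, have no such run and thus no capitals.
RPS27A: ggcgttcttcCTTTTCgatccgccatctgc
FAU: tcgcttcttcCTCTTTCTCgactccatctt
RPS24: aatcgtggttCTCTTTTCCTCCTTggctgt
RPS12: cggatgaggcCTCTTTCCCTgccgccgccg
RPS23: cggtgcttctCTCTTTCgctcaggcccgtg
RPS26: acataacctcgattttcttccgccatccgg
RPS27L: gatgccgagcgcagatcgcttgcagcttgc

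A run of at least 5 bases from the annotated start, a C and then at least 4 bases of C or T on the gene's own strand, was present in 19 of the 26 members, or 73.1%. The same run was found in 5.85% of the 9116 tested protein-coding genes with a window, in 4.07% of all 35116 windows, and in 29 of 41 large subunit genes. Among the 19 members, the run was between 6 and 14 bases long, with the longest in *RPS24*. The members without it were *RPS4X*, *RPS7*, *RPS15*, *RPS26*, *RPS27L*, *RPS28*, and *RPS29*. For *RPS29*, the RefSeq start lies 12330 bases from the start of the canonical GENCODE transcript, so that this window may not hold the start in use. A match of letters is a description of the annotated start and does not show where transcription began in these cells.

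Total counts were 2849979 and 3408827 in the control libraries and between 5442639 and 8854899 in the knockout libraries. Depth therefore goes along with condition, and they cannot be told apart. Levels are given as counts scaled to a common library total (CPM) after TMM normalization, in which 3 counts correspond to between 0.387 and 0.932 CPM. The mRNA level of *MTSS1* overlapped between the groups, with 203 and 87.4 CPM in control and 103, 138, and 49.6 CPM in knockout pools, so that the labels could not be checked by it, although the authors verified the knockout by immunoblot. All 10 markers of the TF-1 cell type, such as *CD34*, *KIT*, and *GATA1*, were present, with a summed level between 622 and 624 CPM in control and between 613 and 896 CPM in knockout pools. Lymphocyte markers (4 of 6 in the table) summed to between 8.08 and 13.3 CPM in control and between 4.66 and 9.16 CPM in knockout pools. Monocyte and granulocyte markers (2 of 6 in the table) stayed at or below 1.24 CPM and epithelial and fibroblast markers (5 of 7) at or below 1.78 CPM in every pool. Mitochondrially encoded genes took 13.9% and 8.63% of the control libraries and between 6.71% and 7.44% of the knockout libraries. Its part in the values of single genes was not tested, while shares of counts were computed with and without these genes in the total.

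The first question was which small subunit mRNAs differed between knockout and control pools. All 33 members passed the filter on low counts. In the knockout, 7 of them (21.2%) were higher and 0 lower in edgeR's quasi-likelihood test (called where the adjusted p-value was under 0.05 and the absolute log2-fold change exceeded 1), where 4.17% of the 14391 tested genes were higher and 1.01% lower (5.18% in either direction). These were *RPS29*, *RPS27A*, *FAU*, *RPSA*, *RPS21*, *RPS26*, and *RPS24*. At an unadjusted p-value under 0.05, 16 members were higher (48.5%, against 14.1% of all tested genes) and 1, *RPS23*, was lower (against 9.23%). DESeq2, which the authors used, called 14 members, all higher, against 7.08% of all tested genes, and limma-voom called 9, all higher, against 3.54%. The calls depended on single pools. Without control pool 1, 10 members were called (9 higher, against 5.89% of all genes, and *RPS27L* lower, against 2.78%). The number was 6 without control pool 2 (all genes higher, 3.64%) and 4 without knockout pool 2 (2.41%). Only *RPS27A* was called without knockout pool 1 (0.801% of all genes higher) and without knockout pool 3 (1.38%).

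**Figure D1:**
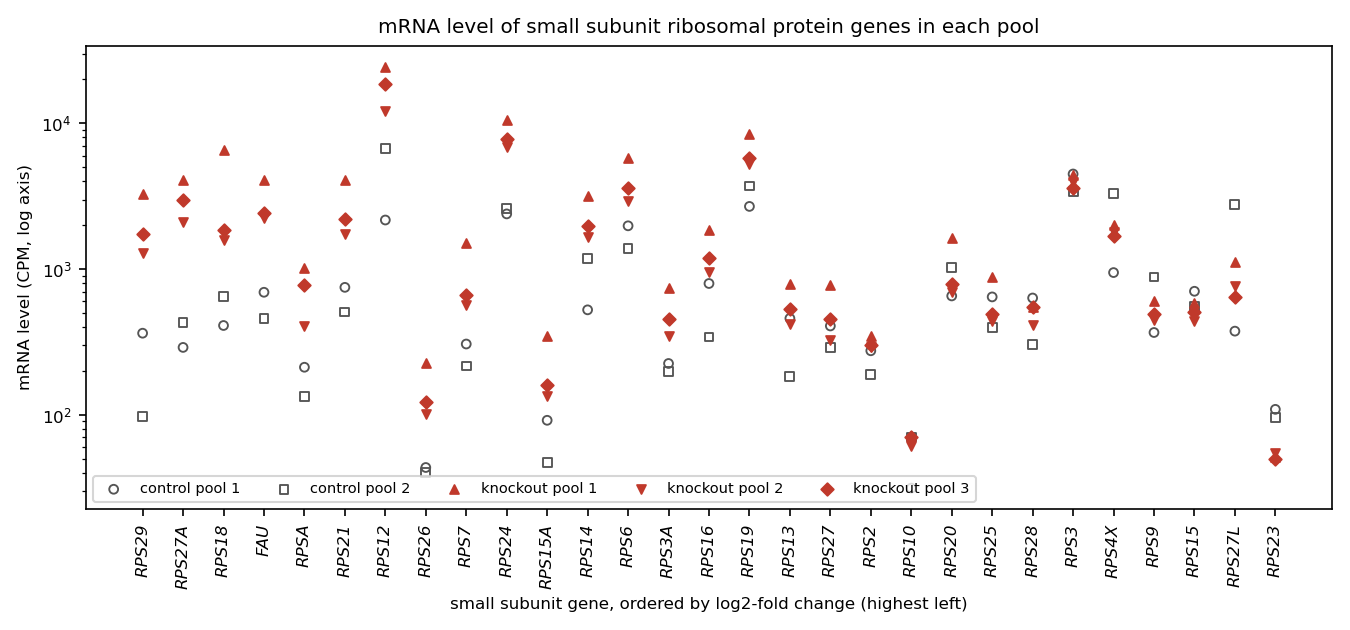
mRNA level (CPM after TMM normalization, log axis) of 29 small subunit genes in each of the 5 pools, ordered by log2-fold change, with open symbols for control and filled symbols for knockout pools. The 3 knockout pools lie above both control pools for 17 of these genes, most of them on the left, and below both for *RPS23* at the right end.

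The family as a whole lay toward higher values. The median log2-fold change (knockout minus control) of the 33 members was 0.86, with a range from −0.98 to 3.19, while the median of all tested genes was −0.03. It was above 0 for 26 members and below 0 for 7, where 48.3% of all tested genes were above 0. All 3 knockout pools lay above both control pools for 18 members (54.5%), against 22.2% of all tested genes, and below both for 1 (3.03%), against 19.3%. For the other 14, the groups overlapped. Knockout pool 1 was the highest knockout pool for 31 of 33 members, against 38.2% of all tested genes, and knockout pool 2 the lowest for 28. Between the control pools, levels differed by more than 2-fold for 10 members, and control pool 1 was the higher of them for 21. With all libraries thinned to the smallest total, 8 members were called higher, against 4.82% of all genes. Over all settings tried, the median stayed between 0.63 and 1.11, although *RPS3* and *RPS28* turned below 0 when libraries were scaled by their total alone.

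Among the proteins of the head, *RPS29* and *RPS27A* were called. *RPS29* (ENSG00000213741, minus strand of chromosome 14, 49570984 to 49599164), a small zinc-binding protein of the head, was present at 363 and 96.9 CPM in control pools 1 and 2. Its levels in knockout pools 1 to 3 were 3260, 1290, and 1730 CPM, all above both control pools, and the control pools themselves differed 3.74-fold. The log2-fold change was 3.19 (standard error (SE) 0.66, adjusted p = 0.0281 in edgeR's quasi-likelihood test). It was 4.45 without control pool 1 and 2.55 without control pool 2, and the call was lost without knockout pool 1 (2.72, adjusted p = 0.0961 in the same edgeR test) and without knockout pool 3 (3.38, adjusted p = 0.0639). *LRR1* overlaps *RPS29* on the opposite strand.

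*RPS27A* (ENSG00000143947, plus strand of chromosome 2, 55231903 to 55235853) encodes ubiquitin fused to a protein of the subunit beak, and cleavage of the fusion supplies the cell with free ubiquitin. Its control levels were 290 and 429 CPM, and its knockout levels were 4060, 2100, and 3000 CPM. The lowest knockout pool thus lay far above the higher control pool. The control mean was 359 ± 98.1 CPM (SD, n = 2) and the knockout mean 3055 ± 980 CPM (SD, n = 3), a ratio of 8.50. The log2-fold change was 3.09 (SE 0.46, adjusted p = 0.0111 in edgeR's quasi-likelihood test). *RPS27A* was the only member called with each of the 5 pools left out in turn, with values between 2.83 and 3.42 and adjusted p-values of at most 0.0476 in that test. It overlaps *CLHC1* on the opposite strand and has 19 annotated pseudogenes.

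The other 12 head proteins were not called. *RPS18*, which contacts the large subunit, had 410 and 649 CPM in control and 6530, 1580, and 1860 CPM in knockout pools. Knockout pool 1 was 4.13-fold above knockout pool 2, the widest spread among knockout pools of any member. Its log2-fold change of 2.65 (SE 0.68) had an adjusted p of 0.0533 in edgeR's quasi-likelihood test and was 1.70 without knockout pool 1. *RPS12*, which also belongs to the beak, had 2170 and 6740 CPM in control and 24500, 12100, and 18700 CPM in knockout pools. The knockout pools were again all higher, while the control pools differed 3.11-fold, and the log2-fold change was 2.05 (SE 0.61, adjusted p = 0.0848 in edgeR's quasi-likelihood test). *RPS12* was called without control pool 2, where the value was 3.11 (adjusted p = 0.0169 in edgeR's quasi-likelihood test), while without control pool 1 it was 1.46 (adjusted p = 0.0921). *RPS16* (1.22) and *RPS19* (1.03) also had all knockout pools above both control pools, at 1840, 955, and 1190 CPM against 796 and 342 CPM for *RPS16* and at 8510, 5280, and 5740 CPM against 2690 and 3710 CPM for *RPS19*. *RPS16* was called without control pool 1 (1.97, adjusted p = 0.0365 in edgeR's quasi-likelihood test) but was at 0.77 without control pool 2 (adjusted p = 0.301).

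The remaining head proteins overlapped between the groups and had log2-fold changes between −0.31 and 0.42, from *RPS15*, whose protein lies near the decoding site, to *RPS10*, which sits at the mRNA entry side of the head. *RPS3*, which lines the mRNA entry and has repair functions outside the ribosome, had nearly equal levels, with 4490 and 3390 CPM in control and 4400, 3960, and 3580 CPM in knockout pools (log2-fold change 0.01, SE 0.37). In all, 2 of the 14 head proteins were called, 6 lay apart above the control pools, and the median log2-fold change was 0.37, where 4.17% of all tested genes were called higher and 22.2% lay apart above.

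**Figure D2:**
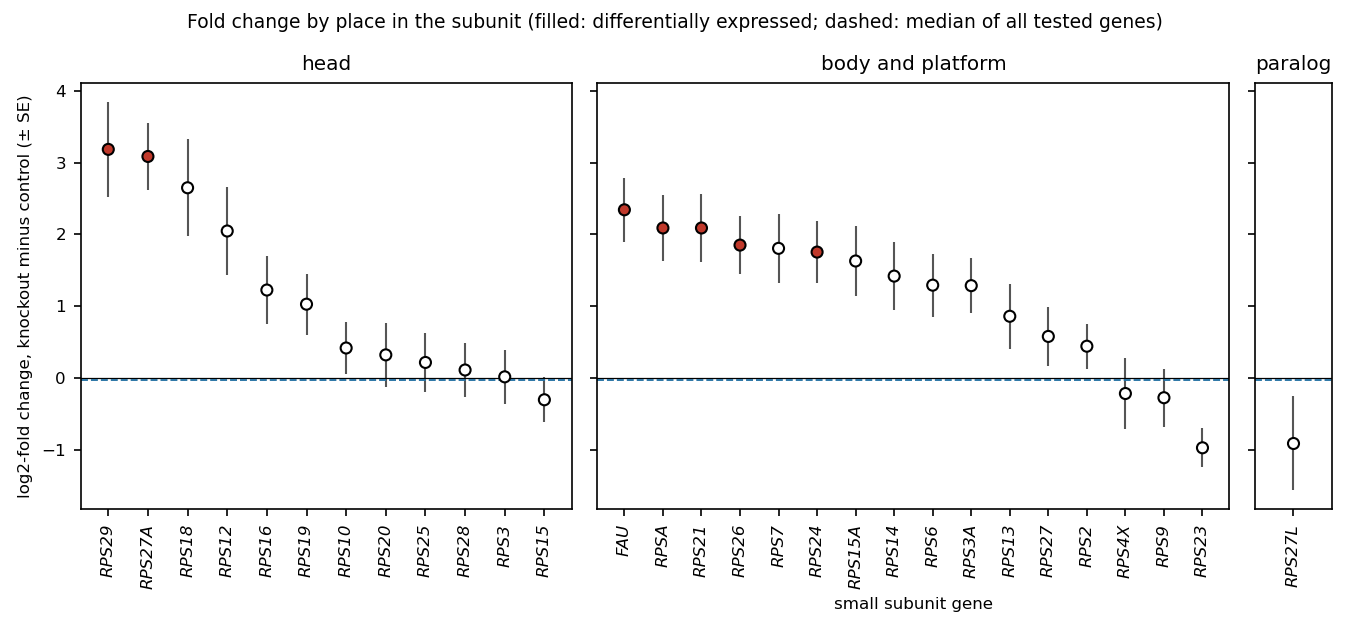
Log2-fold change (knockout minus control, bars ± SE) of 29 small subunit genes, grouped by the place of its protein in the head or in the body and platform, with *RPS27L* as a paralog. Filled points were differentially expressed, 2 in the head and 5 in the body and platform, and the dashed line is the median of all tested genes, −0.03.

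In the body and platform, 5 of 18 genes were called. *FAU* (ENSG00000149806, minus strand of chromosome 11, 65120630 to 65122177) encodes the subunit protein eS30 fused to the ubiquitin-like protein FUBI. Its levels were 693 and 458 CPM in control and 4100, 2250, and 2410 CPM in knockout pools. All knockout pools were higher than both control pools, with a log2-fold change of 2.34 (SE 0.45, adjusted p = 0.0221 in edgeR's quasi-likelihood test). The value was between 2.02 and 2.69 with single pools left out, and the call was lost without knockout pool 1, 2, or 3, with adjusted p-values between 0.0504 and 0.0700 in the same edgeR test. *FAU* overlaps *SYVN1* on the same strand. Thus, both members made as fusions with a ubiquitin or ubiquitin-like part were called.

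*RPSA* (ENSG00000168028, plus strand of chromosome 3, 39406716 to 39426255), which is also known as the laminin receptor and binds at the mRNA exit, had 212 and 133 CPM in control pools. The knockout pools had 1020, 407, and 776 CPM, all of them higher. The log2-fold change was 2.09 (SE 0.46, adjusted p = 0.0349 in edgeR's quasi-likelihood test), with single-pool values from 1.78 to 2.48, and it was not called without control pool 2, knockout pool 1, or knockout pool 3 (adjusted p between 0.0728 and 0.105 in that test). *RPSA* had the most annotated pseudogenes of all members, 74. *RPS21* (ENSG00000171858, plus strand of chromosome 20, 62387103 to 62388520), which binds *RPSA*'s protein at the exit side, had 749 and 507 CPM in control and 4090, 1750, and 2190 CPM in knockout pools. Here too, every knockout pool was above both control pools. The log2-fold change was 2.09 (SE 0.48, adjusted p = 0.0400 in edgeR's quasi-likelihood test) and was called without control pool 1 but with none of the other 4 pools left out (adjusted p between 0.0615 and 0.0997 in that test). With offsets for transcript length and GC content, *RPS21* was at 1.45 and was not called (adjusted p = 0.0556 in edgeR's quasi-likelihood test).

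*RPS26* (ENSG00000197728, plus strand of chromosome 12, 56041351 to 56044697), a protein of the mRNA exit channel and a Diamond-Blackfan anemia gene, had 43.5 and 40 CPM in control and 228, 101, and 123 CPM in knockout pools. The control pools were almost equal and all knockout pools were at least 101 CPM. Its log2-fold change was 1.85 (SE 0.41, adjusted p = 0.0343 in edgeR's quasi-likelihood test). It remained called without knockout pool 2, while leaving out any other pool gave adjusted p-values between 0.0501 and 0.0767 in the same edgeR test. *RPS24* (ENSG00000138326, plus strand of chromosome 10, 78033760 to 78056813), another Diamond-Blackfan anemia gene, had 2390 and 2610 CPM in control and 10600, 6860, and 7800 CPM in knockout pools. The groups were well apart, with little spread in either. The log2-fold change was 1.75 (SE 0.43, adjusted p = 0.0463 in edgeR's quasi-likelihood test), between 1.56 and 1.92 with single pools left out, and the call was lost without any of the knockout pools (adjusted p between 0.113 and 0.190 in that test). With all pools, *RPS24* was also not called with RLE factors (adjusted p = 0.0539 in edgeR's quasi-likelihood test), upper-quartile factors (0.0512), at least 10 counts in every library (0.0696), or offsets for transcript length and GC content (1.41, adjusted p = 0.0524).

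A further 7 genes of the body and platform had all knockout pools above both control pools without being called. Among them were *RPS7* (log2-fold change 1.81), *RPS15A* (1.63), *RPS14* (1.42), *RPS6* (1.29), *RPS3A* (1.29), and *RPS2* (0.44). *RPS6*, the substrate of the S6 kinases, had 1980 and 1390 CPM in control and 5810, 2950, and 3620 CPM in knockout pools (SE 0.44, adjusted p = 0.118 in edgeR's quasi-likelihood test). *RPS14*, a platform protein whose gene is lost in the myelodysplastic syndrome with a deletion of the long arm of chromosome 5, had 525 and 1180 CPM in control and 3190, 1660, and 1970 CPM in knockout pools (SE 0.48, adjusted p = 0.115). The higher control pool of *RPS14* was the second, and without that pool the gene was called at 2.14 (adjusted p = 0.0344 in edgeR's quasi-likelihood test), whereas without control pool 1 it was at 0.96 (adjusted p = 0.194). *RPS15A* was called without control pool 1 (2.21, adjusted p = 0.0487 in that test), as was *RPS13*, whose groups overlapped with all pools included (1.68, adjusted p = 0.0472). Without control pool 2, *RPS15A* was at 1.25 and *RPS13* at 0.37, and neither was called (adjusted p = 0.192 and 0.602 in edgeR's quasi-likelihood test), and *RPS15A* was at 1.09 without knockout pool 1. *RPS13*, which lies at the contact between the subunits, had 459 and 183 CPM in control and 795, 421, and 532 CPM in knockout pools (0.86, SE 0.46). Over the 18 genes the median was 1.29, and 12 lay apart above (22.2% of all tested genes) and 1 below (19.3%).

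*RPS23* (ENSG00000186468, minus strand of chromosome 5, 82273320 to 82278396), whose protein reaches into the decoding center, was the 1 member with all knockout pools below both control pools. It had 109 and 95.4 CPM in control and 51.2, 54.5, and 50 CPM in knockout pools. Both groups were narrow, with means of 102 ± 9.45 CPM (SD, n = 2) and 51.9 ± 2.37 CPM (SD, n = 3), and the log2-fold change was −0.98 (SE 0.27, adjusted p = 0.0678 in edgeR's quasi-likelihood test). In this fit it did not pass either limit. The value stayed between −1.04 and −0.87 with single pools left out. The limit on the adjusted p alone was passed in DESeq2 (−0.99, adjusted p = 0.0252). The same was true in edgeR's quasi-likelihood test with offsets for transcript length and GC content (−0.98, 0.0417). Upper-quartile factors (−1.06, 0.0560) and scaling by library size alone (−1.11, 0.0645) passed the fold limit alone in that test. *ATG10* overlaps *RPS23* on the opposite strand.

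In *RPS27L*, *RPS4X*, and *RPS9*, control pool 2 stood above all other pools. *RPS27L*, a paralog of *RPS27*, had 375 and 2780 CPM in control pools, a 7.42-fold difference, and 1110, 769, and 643 CPM in knockout pools, which lay between them. The log2-fold change was −0.91 (SE 0.66), −1.71 without control pool 1 (adjusted p = 0.0259 in edgeR's quasi-likelihood test), and 1.20 without control pool 2. *RPS4X*, an X-linked protein of the body, had 946 and 3310 CPM in control and 2000, 1800, and 1690 CPM in knockout pools (log2-fold change −0.22, 0.98 without control pool 2). *RPS9*, a body protein near the mRNA entry, had 367 and 882 CPM in control and 608, 445, and 492 CPM in knockout pools (−0.28, 0.52 without control pool 2). For each of them the sign depended on which control pool was used. *RPS27* itself, a zinc-binding protein of the platform, had 407 and 290 CPM in control and 781, 326, and 452 CPM in knockout pools, with overlapping groups (0.58, SE 0.42).

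**Figure D3:**
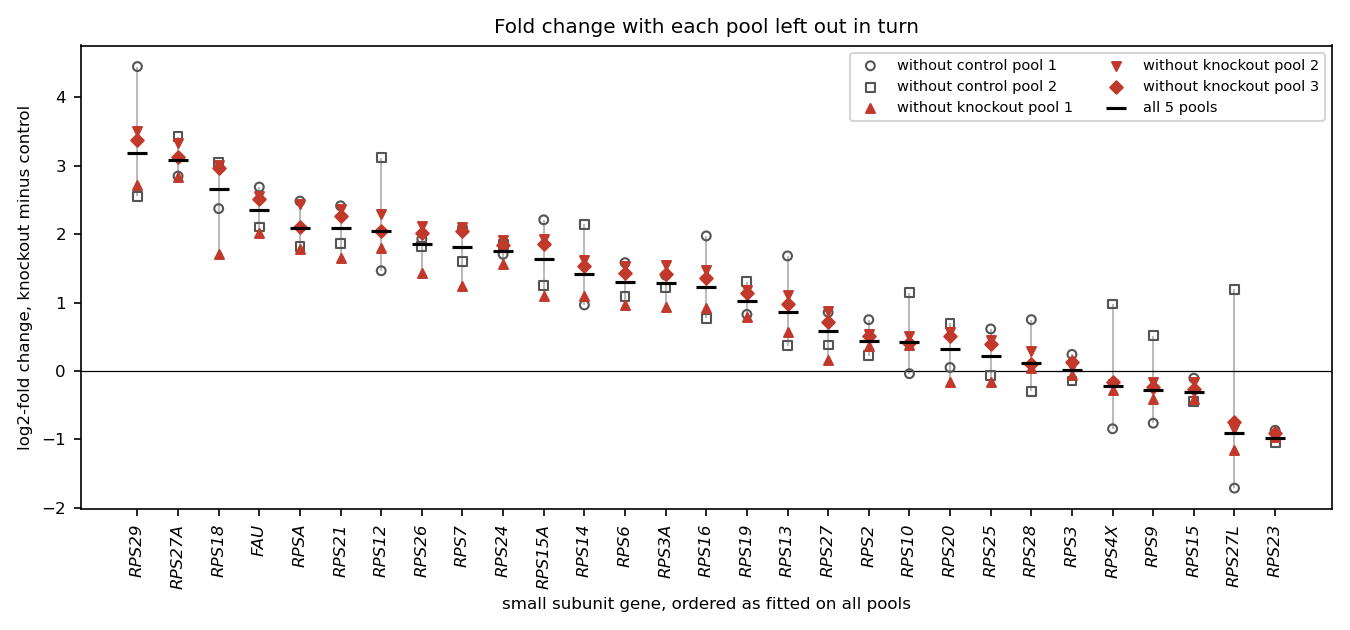
Log2-fold change (knockout minus control) of 29 small subunit genes with all 5 pools (bar) and with each pool left out in turn (symbols), ordered as fitted on all pools. The symbols of *RPS27A* stay between 2.83 and 3.42, while those of *RPS27L*, *RPS4X*, and *RPS9* lie on both sides of 0.

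Diamond-Blackfan anemia is caused by variants in several members, of which 11 were listed. Of these, 3 were called higher (*RPS29*, *RPS26*, and *RPS24*) and 6 lay apart above the control pools, with a median log2-fold change of 1.03. The shares over all tested genes were 4.17% called higher and 22.2% apart above, and over the whole family 21.2% and 54.5%. *RPS19*, the most often affected gene in that disease, was not called, with a log2-fold change of 1.03 (SE 0.43, adjusted p = 0.184 in edgeR's quasi-likelihood test).

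The second question was how large a part of the mRNA the family made up. Of all counts, 3.62% (3.59 to 3.64, 95% Wilson interval) fell on small subunit genes in control library 1, and 3.77% (3.75 to 3.79) did so in the other control library. In the knockout libraries they took 9.20% (9.18 to 9.22), 5.96% (5.94 to 5.98), and 7.03% (7.01 to 7.05). The control libraries were thus nearly equal and all knockout libraries higher, with means of 3.69 ± 0.112% (SD, n = 2) and 7.40 ± 1.65% (SD, n = 3), a difference of 3.70 percentage points. The share also followed the total counts, within each group as well. At totals of 2849979, 3408827, 5442639, 5801636, and 8854899 it was 3.62%, 3.77%, 5.96%, 7.03%, and 9.20%. Whether depth had a part in the difference was not tested. The exact permutation test over the 10 splits of the pools gave a two-sided p of 0.2, which is the smallest it can give with 2 and 3 pools. With single libraries left out, the difference ranged from 2.80 to 4.42 points. A larger part of the cells with these mRNAs, more of them per cell, and less of all other mRNA per cell cannot be told apart in such libraries. The intervals hold counting error alone, and whether PCR duplicates were kept is not given in the sources used here.

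A single gene, *RPS12*, took 0.245% and 0.667% of the control and 2.14%, 1.24%, and 1.86% of the knockout libraries. Without it, the family took 3.37% and 3.11% in control and 7.06%, 4.72%, and 5.17% in knockout libraries, so that all knockout libraries were still higher. When mitochondrially encoded genes were left out of the total, the family took 4.2% and 4.13% in control and 9.94%, 6.43%, and 7.54% in knockout libraries, and the difference of 3.81 points was as large as with them. Large subunit genes took 4.23% and 5.67% in control and 8.92%, 6.21%, and 7.11% in knockout libraries. Annotated pseudogenes of the members, 346 of which were in the table, took 0.340% and 0.296% in control and 0.531%, 0.348%, and 0.391% in knockout libraries.

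**Figure D4:**
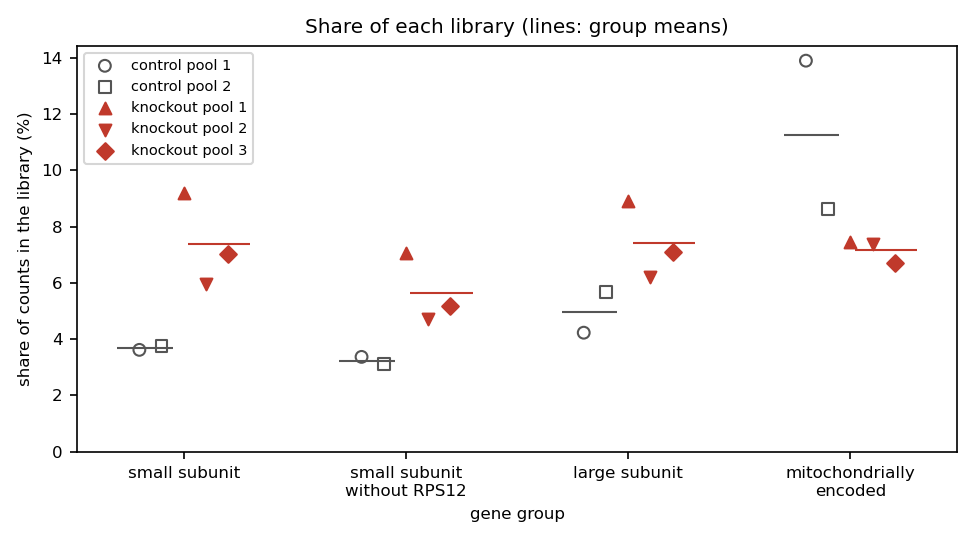
Share of the counts of each library (%) in small subunit genes, in the same genes without *RPS12*, in large subunit genes, and in mitochondrially encoded genes, with lines at the group means. The control libraries lie at 3.62% and 3.77% for small subunit genes and the knockout libraries between 5.96% and 9.20%, while mitochondrially encoded genes show the opposite order.

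The third question was whether members differed apart from the family, so each library was scaled to its summed small subunit counts. In this fit, 3 members were higher and 7 lower in the knockout, where 1.76% of all tested genes were higher and 35.0% lower, and a lower value among members is thus not more frequent than among all genes. *RPS27A* (log2-fold change relative to the family 1.95, SE 0.52, adjusted p = 0.00297 in edgeR's quasi-likelihood test), *RPS29* (1.90, SE 0.52, adjusted p = 0.00415), and *RPS18* (1.37, SE 0.50, adjusted p = 0.0252) were the higher members. Those that were lower included *RPS23* (−2.05), *RPS27L* (−1.95), *RPS15* (−1.44), *RPS9* (−1.35), *RPS4X* (−1.24), and *RPS3* (−1.10). *RPS23* made up 0.340% and 0.25% of the small subunit counts in control and 0.0487%, 0.0937%, and 0.0708% in knockout libraries. *RPS3* made up 14% and 8.90% in control and 4.19%, 6.81%, and 5.08% in knockout libraries, while the part of *RPS12* was 6.77% and 17.7% against 23.3%, 20.8%, and 26.5%. In both genes the groups did not overlap. With *RPS12* taken out of the scaling total, a setting chosen after the data were seen, 9 members were called, among them *FAU* (1.37, adjusted p = 0.0289 in edgeR's quasi-likelihood test) and not *RPS3* or *RPS4X*. Without control pool 2, *RPS27L* was at −0.09, *RPS4X* at −0.26, *RPS9* at −0.75, and *RPS29* at 1.19, and none of these was called (adjusted p = 0.905, 0.673, 0.257, and 0.0655 in edgeR's quasi-likelihood test). Without control pool 1, *RPS18* (1.18, adjusted p = 0.081 in edgeR's quasi-likelihood test), *RPS15* (−1.10, 0.123), and *RPS3* (−0.73, 0.184) were not called, and without knockout pool 1, *RPS18* was at 0.85 (0.154). Without knockout pool 1, 3 members were called, among them *RPS27A* and *RPS23*, and without knockout pool 3 none was called by edgeR's quasi-likelihood test (7 members had an unadjusted p-value under 0.05).

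**Figure D5:**
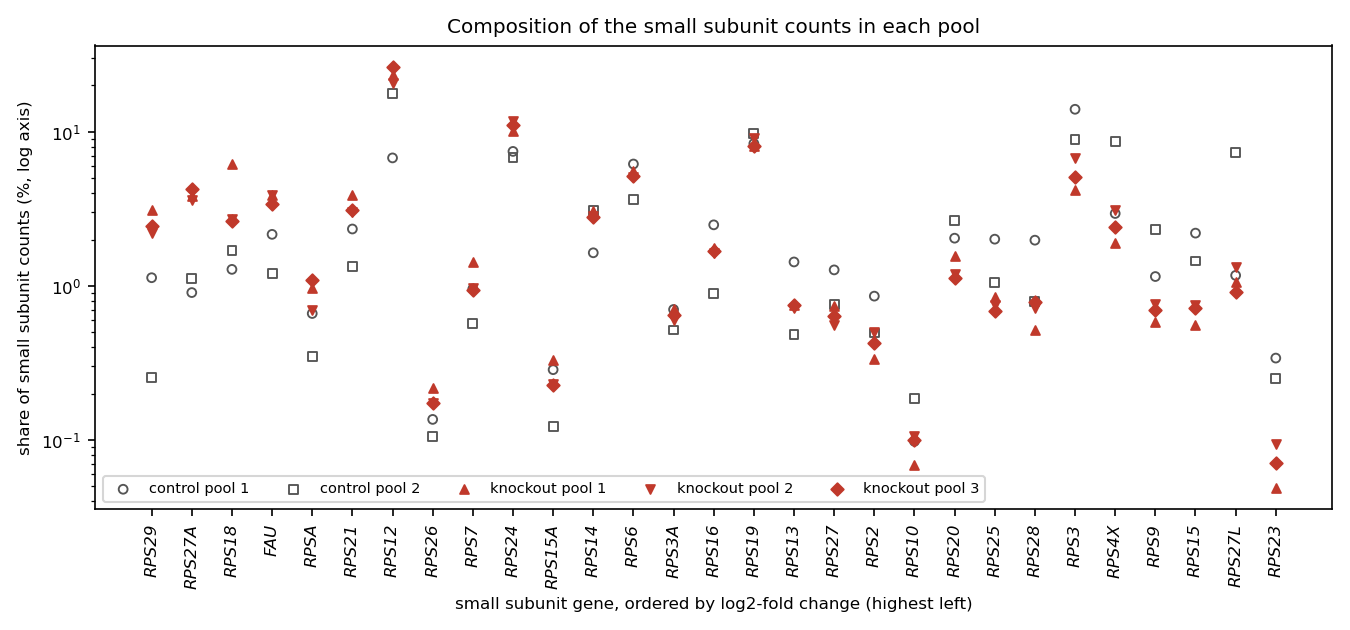
Share of the small subunit counts (%, log axis) taken by each of 29 genes in each pool, ordered by log2-fold change. *RPS12* takes between 6.77% and 17.7% in control and between 20.8% and 26.5% in knockout pools, and *RPS23* at the right end has its 3 knockout pools below its control pools.

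The members share further features that the choice by symbol did not use. The canonical GENCODE transcript had a median length of 732 bases, against 2754 bases for all tested genes. Across the 33 members, which are not independent replicates and share all libraries, the log2-fold change had a Spearman's rho of −0.20 with transcript length, −0.13 with the mean control level, and 0.43 with the number of annotated pseudogenes. Pseudogenes named after the gene were annotated for 32 members, 498 in all and a median of 10 for each, with none for *RPS27L*. Since only uniquely mapped reads were kept by the authors, counts of members with near-identical copies are uncertain. The same holds for any genes of the other lists that have such copies. Small nucleolar RNAs, which guide the modification of rRNA, lie within 9 members, 20 in all. Another protein-coding or long non-coding gene overlaps 5 members on the same strand and 13 on the opposite strand, and the counts of these are uncertain too, as the use of strand in counting is not given in the sources used here. The 19 members with a TOP run had a median log2-fold change of 1.29 with 5 called, and the 7 without had a median of 0.11 with 2 called, while the median of all tested protein-coding genes with the run was 0.18. Over all tested genes, 4.17% were called higher. The members without the run include *RPS29*, whose window may not hold the start in use, and 7 members without a window were left out. A link between the run and the change was not tested.

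Genes with other roles in the life of the subunit were counted in the same fit. Among 32 assembly factors, which process and fold the small subunit rRNA in nucleolus and cytoplasm, 3 were called higher and 0 lower, with a median of 0.10. *RCL1*, an early processing factor, had 27.3 and 22.5 CPM in control and 156, 126, and 179 CPM in knockout pools (log2-fold change 2.63, SE 0.33, adjusted p = 0.00706 in edgeR's quasi-likelihood test). *NOB1*, the nuclease that makes the last cut of the small subunit rRNA, had 22.1 and 12.1 CPM in control and 71.2, 69.6, and 80.9 CPM in knockout pools (2.11, SE 0.36, adjusted p = 0.0156). *IMP3*, a partner of the U3 small nucleolar RNA, was the third (1.99, SE 0.47, adjusted p = 0.0439 in edgeR's quasi-likelihood test). Knockout and control pools were apart in each of these genes. At an unadjusted p-value under 0.05, 5 assembly factors were higher and 1 was lower, close to or below the 14.1% and 9.23% of all tested genes, while the 3 called higher stand against 4.17%. *RCL1* was called with each pool left out in turn, *NOB1* was not without knockout pool 1 (2.14, adjusted p = 0.0606 in edgeR's quasi-likelihood test) or 3 (2.09, 0.0519), and *IMP3* was called with no single pool left out other than control pool 2 (2.65, adjusted p = 0.0295).

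Of the 8 dedicated partners, chaperones and modifying enzymes of single members, none was called by edgeR's quasi-likelihood test, DESeq2, or limma-voom. At an unadjusted p-value under 0.05, 1 was lower, against 9.23% of all tested genes. *RACK1*, a scaffold on the head, had 643 and 509 CPM in control and 1260, 823, and 841 CPM in knockout pools (0.76), and *PRMT3*, which methylates the protein of *RPS2*, had 13.7 and 17.2 CPM against 8.51, 8.43, and 7.26 CPM (−0.93). *TSR2*, the chaperone of the protein of *RPS26*, overlapped between the groups (−0.25). The median over 19 tested initiation factors that bind the small subunit before it meets the mRNA was 0.29. Of these, 1 was called higher and 1 lower, against 4.17% and 1.01% of all tested genes. The higher was *EIF3J* (1.41, SE 0.32, adjusted p = 0.0379 in edgeR's quasi-likelihood test) and the lower *EIF3C* (−1.21, SE 0.28, adjusted p = 0.0408). Neither was called without knockout pool 1, 2, or 3 (adjusted p between 0.0952 and 0.138 in edgeR's quasi-likelihood test), and *EIF3C* was not called without control pool 1 either (−1.04, 0.0586).

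Other mRNAs known to carry a TOP tract lay on both sides of 0. Of the 15 tested, which include elongation factors and the poly(A)-binding protein, none was called by edgeR's quasi-likelihood test or limma-voom and 3 by DESeq2. At an unadjusted p-value under 0.05, 2 were higher and 4 lower, against 14.1% and 9.23% of all tested genes. *EEF1B2* had 199 and 301 CPM in control and 959, 415, and 571 CPM in knockout pools (1.37), whereas *EEF1A1* had 845 and 386 CPM against 288, 202, and 194 CPM (−1.43) and *VIM* had 1320 and 551 CPM against 321, 474, and 340 CPM (−1.31). These 3 were named because their knockout pools lay on 1 side of both control pools, so that this is no result about them. Of the 15 tested, 6 lay apart above and 5 below the control pools, against 22.2% and 19.3% of all tested genes. Among 16 tested S6 kinases and regulators of TOP mRNAs, 1 (6.25%) was called higher, against 4.17% of all tested genes. This was *MLST8*, a subunit of both mTOR complexes, with 2 counts in each control library and 67, 38, and 52 counts in knockout libraries (0.621 and 0.593 against 8.64, 6.82, and 8.99 CPM, adjusted p = 0.0131 in edgeR's quasi-likelihood test). Its control levels were below the 3 counts taken as the limit of detection, and it was not called without knockout pool 1 (adjusted p = 0.0568 in the same edgeR test). *RPS6KB1*, the gene of the main S6 kinase, had a log2-fold change of −0.05.

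In the response to faulty ribosome assembly, in which free ribosomal proteins block MDM2, none of 9 genes was called by edgeR's quasi-likelihood test and 3 by DESeq2. At an unadjusted p-value under 0.05, 3 were higher and 1 lower, against 14.1% and 9.23% of all tested genes. *MDM2* (−0.16) and *CDKN1A* (−0.34) overlapped between the groups. *BBC3*, a pro-apoptotic member of the BCL2 family, had 23.0 and 5.33 CPM in control and 36.9, 63.3, and 59.7 CPM in knockout pools (1.91, SE 0.55, adjusted p = 0.0778 in edgeR's quasi-likelihood test). *RPL5* (1.24) and *RPL11* (1.28), which block MDM2, lay apart above the control pools as well. These genes and *BBC3* were named because their knockout pools lay on 1 side. Of the 9 genes, 3 lay apart above and 0 below, against 22.2% and 19.3% of all tested genes. Of 51 tested large subunit genes, 26 lay apart above the control pools, where 22.2% of all tested genes did. Their median log2-fold change was 0.86, the same as for the small subunit to 2 decimals. In all, 8 of them (15.7%) were called higher and 0 lower, against 4.17% and 1.01% of all tested genes. These were *RPL7A* (2.91), *RPL3* (2.24), *RPL36* (2.19), *RPLP0* (2.01), *RPL27* (1.98), *RPL22L1* (1.80), *RPL13A* (1.61), and *RPL15* (1.43), and *RPL41* was the 1 gene apart below (−1.29). Of 27 tested genes for the small subunit of the mitochondrial ribosome, 1 was called, *MRPS27* (2.07, SE 0.30, adjusted p = 0.0109 in edgeR's quasi-likelihood test), with a median of 0.44, and it was called with each pool left out in turn. This 1 call of 27 is a share of 3.7%, against 4.17% of all tested genes called higher. None of the 8 large subunit genes was called without knockout pool 1 or without knockout pool 3 in edgeR's quasi-likelihood test, with adjusted p-values between 0.0593 and 0.199.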

How the data were processed

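RNA of 2 control and 3 *MTSS1* knockout pools of TF-1 cells was sequenced by the authors as 50-base single-end QuantSeq 3′ mRNA libraries. They trimmed adapters with BBDuk, checked reads with FastQC 0.11.9, aligned them to GRCh38 with HISAT2 2.1.0, and used SAMtools 1.10 to keep uniquely mapped reads. The deposited values are raw counts of reads for each Ensembl gene. How reads were counted, with which annotation, whether by strand, and whether PCR duplicates were kept is not given in the sources used here. Pools were grouped by their sample labels.

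Differential expression was tested with edgeR 4.0.16 (R 4.3.3). Low genes were removed by filterByExpr at a minimum count of 10 (14391 genes left), and the rest normalized with TMM (factors between 0.876 and 1.13), and tested with the quasi-likelihood test on condition alone, with Benjamini-Hochberg adjustment over all tested genes. The biological coefficient of variation was 32.2%. For the fit relative to the family, libraries were scaled to their summed small subunit counts. Shares of counts were compared by an exact two-sided permutation test. Gene names (27211 of 27328 genes), positions, and transcripts came from GENCODE release 44, and start windows from RefSeq on GRCh38.p14. Alternatives were DESeq2 1.42.0, limma-voom (limma 3.58.1), other normalization factors and filters, libraries thinned to the smallest total, offsets for transcript length and GC content (mgcv 1.9.3), a block for the pool number, other thresholds, and each pool left out in turn. Scripts were tested on simulated data. Permutation tests, tables, and plots used scipy 1.17.1, pandas 2.3.3, and matplotlib 3.10.9 under Python 3.11.15.

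The members and gene lists were chosen with earlier results of these data known. From the other lists, called genes were named, with up to 3 more whose knockout pools all lay on 1 side of both control pools. *TSR2*, *RPS6KB1*, *MDM2*, and *CDKN1A* were named for their role, with their values seen. The comparison of the proteins of *RPS27* and *RPS27L* was not run. Single values of 4 members and of 1 gene of the other lists are not reported here, and these genes enter only counts, medians, and sums.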

Additional observations from a re-analysis of the deposited data

How the results depend on the processing

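Against 7 members and 745 genes in all, DESeq2 called 14 and 1357, and testing without a filter on low counts called 14 and 1374. With an adjusted p-value under 0.1, 12 members were called. With single pools left out, between 1 and 10 members, between 111 and 1340 of all genes, and between 2 and 28 genes of the other lists (15 with all pools) were called, the lowest numbers without knockout pool 1 (1 member was also called without knockout pool 3). The median log2-fold change of the members was between 0.63 and 1.11 and the difference in share between 2.80 and 4.42 points. Relative to the family, 10 members were called with all pools and between 0 and 10 with single pools left out. The numbers 1 and 2 occur in both groups, but nothing in the labels ties pools of the same number together, and the differences between pools 1 and 2 in control and knockout had a Pearson's r of 0.18 across genes. With the pool number as a block, 9 members and 1077 of all genes were called, 6 of the 9 among the 7 above, and 0 relative to the family (8 with an unadjusted p-value under 0.05, edgeR's quasi-likelihood test), and 0 with the block and the length and GC offsets together (6 with an unadjusted p-value under 0.05). Under the block, *RPS24* was not called (1.77, adjusted p = 0.0742 in edgeR's quasi-likelihood test), and with block and offsets neither *RPS21* (1.51, 0.123) nor *RPS24* (1.40, 0.232) was. The causes were not tested.

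Of 493 values of 29 single members over 17 settings, 411 kept direction and side of the threshold, 30 passed it anew, 27 no longer passed it, and 25 changed sign, in 9 members that were not called. With the length and GC offsets, the log2-fold change was −0.022 for *RPS27*, −0.078 for *RPS20*, −0.047 for *RPS3*, −0.20 for *RPS25*, and −0.095 for *RPS28*, and with offsets and block −0.027 for *RPS27*, −0.13 for *RPS25*, 0.078 for *RPS27L*, and −0.063 for *RPS28*. Scaling by library size alone, which moved the median of all genes from −0.03 to −0.17, gave −0.14 for *RPS3* and −0.065 for *RPS28*. Upper-quartile factors gave −0.070 and thinned libraries −0.0099 for *RPS3*, and *RPS4X* was at 0.045 in limma-voom and 0.099 with the block. With single pools left out, values ranged from −0.039 to 1.14 for *RPS10*, from −0.16 to 0.70 for *RPS20*, from −0.17 to 0.61 for *RPS25*, from −1.71 to 1.20 for *RPS27L*, from −0.30 to 0.75 for *RPS28*, from −0.15 to 0.24 for *RPS3*, from −0.84 to 0.98 for *RPS4X*, and from −0.76 to 0.52 for *RPS9*. In *RPS4X*, *RPS9*, and *RPS27L*, 1 pool, control pool 2, turned the sign. With 2 control pools of lower depth than every knockout pool, levels near 3 counts, as in *MLST8*, are poorly resolved.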
